A study of Ovis aries with 115 samples.

Results

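The genes described here are 6 of the 13 protein genes of the sheep mitochondrial genome, namely those of cytochrome c oxidase (COX-1, COX2 and COX3), cytochrome b (CYTB) and ATP synthase (ATP6 and ATP8). They were chosen by identifier from the 27054 Ensembl gene identifiers counted in each library. In identifier order these are ENSOARG00000000016 (COX-1), ENSOARG00000000019 (COX2), ENSOARG00000000021 (ATP8), ENSOARG00000000022 (ATP6), ENSOARG00000000023 (COX3) and ENSOARG00000000035 (CYTB). The name COX-1 comes from the study's gene tables, and the other 5 names rest on gene order. In the RefSeq annotation of another sheep assembly (ARS-UI_Ramb_v3.0), the 37 mitochondrial genes taken in order put COX1 at rank 16, COX2 at rank 19, ATP8 at rank 21, ATP6 at rank 22, COX3 at rank 23 and CYTB at rank 35. The same order puts ND6 at rank 33, which is the other mitochondrial identifier that the study's tables name. ATP8 and ATP6 overlap in that annotation, so reads from the overlap cannot be given to either gene with certainty.

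Mid-cervical RNA was sequenced from multiparous ewes of 4 breeds, with 1 library per ewe. The Suffolk and Belclare ewes lived in Ireland, the Fur ewes and those of the Norwegian White Sheep (NWS) in Norway. A difference between an Irish and a Norwegian breed therefore cannot be told apart from one between countries, whereas Fur against NWS stays within Norway. Suffolk has low, Belclare medium, and Fur and NWS high fertility after cervical insemination with frozen-thawed semen. The 3 states were the follicular phase of a cycle synchronised with progestagen sponges and equine chorionic gonadotrophin, the follicular phase of a natural cycle, and a luteal phase after synchronisation. For Suffolk, Belclare, Fur and NWS there were 11, 10, 8 and 10 ewes in the synchronised follicular phase. The natural follicular phase had 8, 10, 10 and 10 ewes, and the synchronised luteal phase 10, 10, 9 and 8. A library of contradictory labels was left out, and the rest are called the mapped ewes. No sequencing batch or date is given in the sources used here, and p-values measure the spread between these ewes.

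Mitochondria make most of a cell's ATP by oxidative phosphorylation. Electrons pass from complex I through complex III, which holds cytochrome b, to complex IV, cytochrome c oxidase, where oxygen is reduced. The proton gradient built along the way drives ATP synthase. The mitochondrial genome encodes a few subunits of each of complexes I, IV and ATP synthase, and cytochrome b of complex III. Its genes are transcribed together as long precursors, and the transfer RNA genes between them mark where the precursors are cut. COX1 carries the site where oxygen is reduced, COX2 takes electrons from cytochrome c, and COX3 completes the core of complex IV. ATP6 forms part of the proton channel of ATP synthase, and ATP8 is a small subunit beside it.

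Total counts per library ranged from 12238996 to 31261671 with a median of 17835128. The 37 mitochondrial identifiers held 0.577% to 1.59% of these counts, and the 6 genes alone 0.460% to 1.26%. No pair of libraries of the same group agreed within counting noise, with a chi-square of at least 16.5 per degree of freedom in each of 490 pairs. The markers of smooth muscle (DES and ACTG2), epithelium and mucus (CDH1, MUC1, MUC5AC, MUC5B, MUC16 and PAX8), endothelium (VWF) and leukocytes (CD27 and CD177) were detected in every ewe, except CD177 at 0 in 1 ewe, as a piece of cervical wall would hold. Of the 27054 identifiers, 14811 reached 1 CPM, the unit of counts relative to library size, in 10 or more synchronised follicular ewes and were tested. All 6 genes were among them, ATP8 only with the Fur ewes counted. CPM below are scaled by TMM library sizes, and a gene is called changed where the adjusted p of edgeR's quasi-likelihood test is under 0.05 after Benjamini-Hochberg adjustment over all genes tested. Transcript lengths of the build used were not at hand, so levels are compared between ewes and never between genes.

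In the synchronised follicular phase COX-1 separated the Fur ewes from the other breeds. It stood at 34.9 ± 6.69 CPM in Fur (SD, n = 8), 2403 ± 285 in Suffolk (n = 11), 2480 ± 305 in Belclare (n = 10) and 1718 ± 170 in NWS (n = 10). The Fur mean was 1.45% of the Suffolk mean. The raw counts of the 8 Fur ewes ran from 429 to 978 with a median of 623, and those of the 11 Suffolk ewes from 32089 to 69247 with a median of 40555. No Fur ewe came near a Suffolk ewe in this phase.

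The same gap was present in the other states. In the natural follicular phase COX-1 was at 32.7 ± 5.89 CPM in Fur (SD, n = 10) and at 2461 ± 334 in Suffolk (n = 8). Luteal ewes had 32.1 ± 4.19 CPM in Fur (n = 9) and 1928 ± 350 in Suffolk (n = 10). Over all 27 Fur ewes the counts ran from 409 to 978, in every phase and cycle.

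Against Suffolk, the log2 fold change of COX-1 in Fur was -6.11 (SE 0.14) in the synchronised follicular phase, with an adjusted p of 5.4e-17 by the quasi-likelihood test. It was -6.26 (SE 0.13, adjusted p = 8.0e-17) in the natural follicular phase and -5.92 (SE 0.13, adjusted p = 2.4e-17) in the luteal phase by the same test. These are 68.8-fold, 76.4-fold and 60.6-fold lower levels. They rest on uniquely mapped read pairs with few mismatches to the reference. Whether the RNA itself or its mapping differed between the breeds was not tested. The 3 comparisons use different ewes of both breeds. In each of them COX-1 had the smallest p-value of the 14811 genes. For the synchronised follicular phase the paper had already reported COX-1 as the most different gene between these breeds. The rank there restates a known result and adds no support. In the 3 comparisons 31.6%, 20.2% and 30.1% of all genes tested were called. A call alone therefore says little here, and the size of the change sets COX-1 apart.

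**Figure D1:**
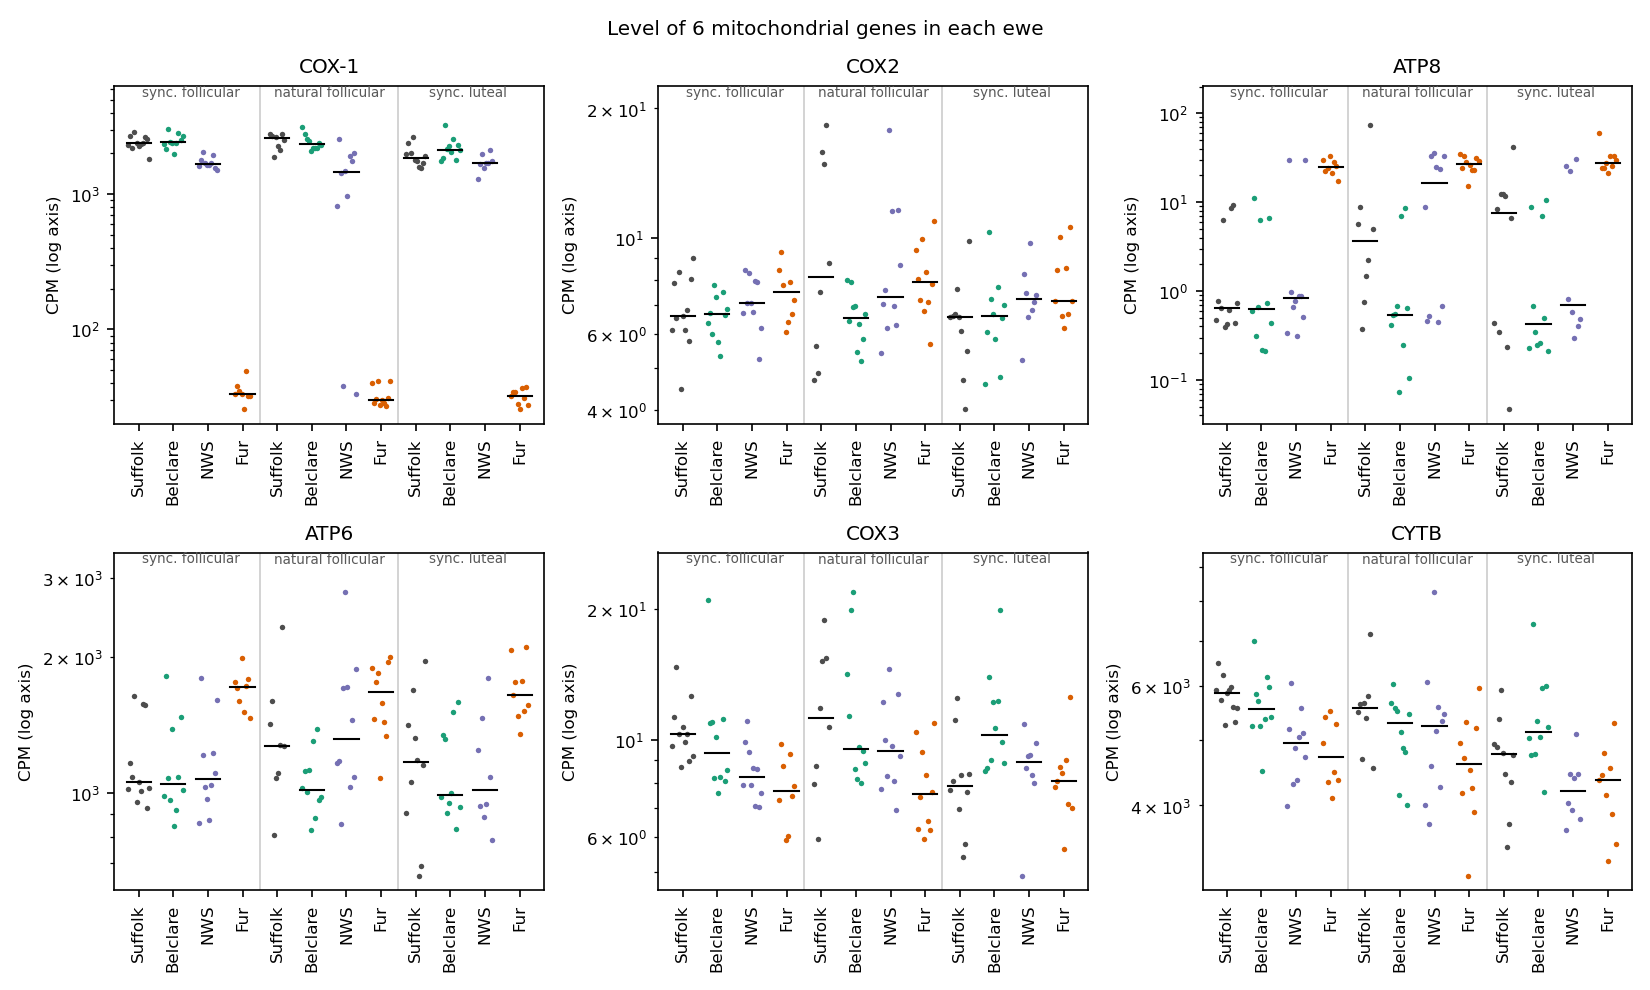
Level of each gene in CPM (log axis) for each ewe (points) by breed and state, with the group median as a bar, "sync." standing for the synchronised cycle. COX-1 lies between 25.7 and 49.0 CPM in all 27 Fur ewes and between 816 and 3232 CPM in 85 other ewes, with 2 NWS ewes of the natural cycle among the Fur values.

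The comparison of Fur with NWS holds the country constant, and few genes of the transcriptome were called in it. COX-1 was the 1 gene called of 14811 in the synchronised follicular phase (0.00675% of genes tested), with a log2 fold change of -5.61 (SE 0.13, adjusted p = 2.4e-16, edgeR). An unadjusted p under 0.05 was met by 3 of the 6 genes there, and by 7.04% of genes tested, ATP6 (0.55, SE 0.13) and ATP8 (1.97, SE 0.84) being the other members. ATP8 passed the filter only with the Fur ewes counted and overlaps ATP6 in the RefSeq annotation. The ATP6 and ATP8 values are therefore not separate results, and nothing is read from this count. Among luteal ewes COX-1 was at -5.75 (SE 0.12, adjusted p = 3.6e-16, edgeR), where 0.0540% of genes tested were called. For the natural follicular phase the value was -5.31 (SE 0.59, adjusted p = 0.00015, edgeR), where 0.0405% were called. Over the 17 Fur and 18 NWS ewes of the synchronised cycle, COX-1 was also the 1 gene of 14811 whose CPM did not overlap between the breeds.

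The larger error of the natural cycle came from 2 NWS ewes. Among the 10 NWS ewes of the natural follicular phase, replicates 4 and 10 had 634 and 577 COX-1 counts, inside the Fur range. Replicates 1, 5 and 6 had 16361, 18244 and 16963 counts, and the remaining 5 ewes had 21742 to 39051. Relative to the other 5 genes in the same library, on the log2 scale, replicates 4 and 10 were at -7.38 and -7.80, replicates 1, 5 and 6 at -2.67, -2.91 and -2.84, and the remaining 5 ewes at -1.79 to -1.50. By contrast, all 18 NWS ewes of the synchronised cycle had at least 21275 counts. Without replicates 4 and 10 the log2 fold change of Fur against NWS was -5.62 (adjusted p = 1.9e-12, edgeR).

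At genes outside the mitochondrial genome replicates 4 and 10 lay among the NWS ewes. For the 200 genes outside the mitochondrial genome that differed most by p-value between Fur and NWS in the synchronised follicular phase, it was counted how many were nearer to the Fur than to the NWS mean in each ewe of the natural cycle. The count was 79 in replicate 4 and 89 in replicate 10, within the 57 to 115 of the 10 NWS ewes and below the 116 to 152 of the 10 Fur ewes. Within the mitochondrial genome their ATP8 (33.2 and 33.3 CPM) and ATP6 (1889 and 1712 CPM) were inside the Fur ranges, as were those of some other NWS ewes. The labels of these 2 ewes were kept. Since these genes hardly differ between the breeds, the check is a weak one.

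Between NWS and Suffolk, COX-1 differed far less. It was lower in NWS in the synchronised follicular phase by a log2 fold change of -0.49 (SE 0.08, adjusted p = 4.6e-05, edgeR), a level 1.41-fold lower, and 8 of 10 NWS ewes lay below the lowest Suffolk ewe. In this comparison 41.7% of genes tested were called. With all mapped ewes in a single fit, the adjusted p was 0.083 (edgeR). Luteal NWS ewes gave a log2 fold change of -0.15 (95% interval -0.38 to 0.08, adjusted p = 0.45, edgeR), with 8.93% of genes called. The natural cycle gave -0.93 (95% interval -1.99 to 0.14, adjusted p = 0.36, edgeR), with 1.04% called, and -0.61 (adjusted p = 0.18) without replicates 4 and 10. The single fit of all ewes called it there (adjusted p = 0.0064).

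None of the 6 genes was called between Belclare and Suffolk in any state. The log2 fold change of COX-1 was 0.04 (95% interval -0.13 to 0.20) in the synchronised follicular, -0.02 (-0.23 to 0.19) in the natural follicular and 0.20 (-0.03 to 0.42) in the luteal phase. The share of all genes called by edgeR was 0.00675%, 0% and 3.15% in these comparisons. At an unadjusted p under 0.05 there were 0, 3 and 1 of the 6 genes, beside 6.44%, 9.74% and 24.8% of all genes tested. DESeq2's Wald test also called none of the 6.

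Set against the other 5 genes within each library, COX-1 gave the same picture without any scaling between libraries. The sum of these genes was mostly CYTB and ATP6, with medians of 92914 and 18249 counts in synchronised follicular Suffolk ewes. COX2, the next protein gene after COX-1, had a median of 111 there and hardly enters the ratio. The log2 ratio of the COX-1 count to the summed counts of the other 5 genes was -7.56 ± 0.27 in Fur (SD, n = 8) and -1.55 ± 0.16 in Suffolk (n = 11) in the synchronised follicular phase. It was -7.58 ± 0.17 and -1.49 ± 0.21 in the natural cycle, and -7.55 ± 0.09 and -1.61 ± 0.15 in the luteal phase. COX-1 made up 21.5% to 28.9% of the counts of the 6 genes in the synchronised follicular Suffolk ewes and 0.443% to 0.777% in the Fur ewes. The ratio had no value between -6.997 and -2.91 in any mapped ewe.

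**Figure D2:**
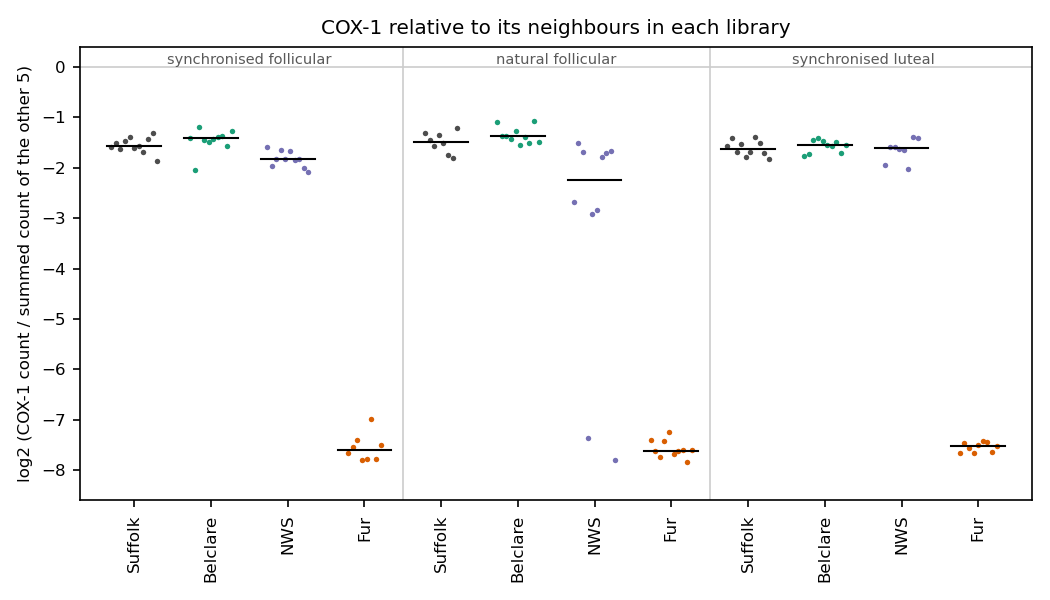
Log2 ratio of the COX-1 count to the summed counts of COX2, ATP8, ATP6, COX3 and CYTB in each library (points) by breed and state, with the group median as a bar. The 27 Fur ewes and NWS replicates 4 and 10 of the natural cycle lie from -7.85 to -6.997, and the other 85 ewes from -2.91 to -1.06.

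The loss was not shared by the protein genes on either side, ND2 and COX2. Both had few counts in every breed, so they are a weak comparison. ND2 had 14 to 46 counts in Fur and 17 to 35 in Suffolk in the synchronised follicular phase. In RefSeq order the gene that follows COX1 is a transfer RNA gene, here ENSOARG00000000017, which had too few counts to be tested. It was at 0 counts in 27 of 27 Fur ewes and in NWS replicates 4 and 10 of the natural cycle. Of the other 85 ewes 4 were at 0, and the rest had up to 54 counts. With so few counts, 0 allows up to 3 counts, which covers many of the ewes that were not at 0. Whether reads of this gene and of COX-1 stem from the same transcripts was not tested.

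COX2, the next protein gene, was not called in any comparison. Its counts ran from 97 to 221 in the 27 Fur ewes and from 76 to 246 in the other 87. In the synchronised follicular phase it stood at 7.48 ± 1.10 CPM in Fur and 6.90 ± 1.32 in Suffolk, a log2 fold change of 0.12 (95% interval -0.13 to 0.37). The interval was -0.82 to 0.17 in the natural cycle and 0.00 to 0.59 in the luteal phase. The level of COX2 in the natural cycle was highest in Suffolk replicates 6, 7 and 8, at 15.8, 14.9 and 18.3 CPM against 4.71 to 8.79 in the other 5 Suffolk ewes. The same 3 ewes had 48 to 54 counts of ENSOARG00000000017, and no other ewe had more than 13. Without them, an exclusion chosen after seeing the data, the Fur to Suffolk log2 fold change of COX2 turned from -0.33 to 0.35 (adjusted p = 0.14, edgeR). The same exclusion moved the calls among all 14811 genes of the natural cycle. They rose from 2995 to 5094 for Fur and from 154 to 1608 for NWS against Suffolk. A gene not called against Suffolk in that state is therefore weak evidence of no difference.

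COX3 was lower in both Norwegian breeds in the synchronised follicular phase. The ranges were 100 to 215 counts in Fur, 111 to 191 in NWS and 143 to 294 in Suffolk, so the groups overlapped. The log2 fold change was -0.44 (SE 0.12, adjusted p = 0.010, edgeR) in Fur and -0.32 (SE 0.10, adjusted p = 0.017) in NWS. In the single fit of all ewes neither was called (adjusted p = 0.052 and 0.12). Both comparisons use the same 11 Suffolk ewes. In the natural cycle COX3 was at 7.92 ± 1.82 CPM in Fur and 11.8 ± 4.39 in Suffolk, a log2 fold change of -0.60 (SE 0.20, adjusted p = 0.041). That call did not survive leaving out Suffolk replicates 6, 7 and 8 (-0.20, adjusted p = 0.41). Luteal ewes gave 0.00 (95% interval -0.31 to 0.31).

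CYTB followed a similar course on a smaller scale. In the synchronised follicular phase it stood at 4800 ± 547 CPM in Fur, 4919 ± 619 in NWS, 5646 ± 670 in Belclare and 5803 ± 371 in Suffolk. The log2 fold change against Suffolk was -0.28 (SE 0.07, adjusted p = 0.0088, edgeR) in Fur and -0.24 (SE 0.07, adjusted p = 0.0091) in NWS, and 5 of 8 Fur and 8 of 10 NWS ewes lay below every Suffolk ewe. Both were also called in the single fit of all ewes (adjusted p = 0.032 and 0.036). Fur ewes of the natural cycle were at -0.29 (SE 0.12, adjusted p = 0.079), and in the luteal phase at -0.14 (95% interval -0.35 to 0.06). Between Fur and NWS it was -0.02 (95% interval -0.20 to 0.16) in the synchronised follicular phase.

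The markers of other cell types differed between these groups as well. In the synchronised follicular phase the summed CPM of DES and ACTG2, the smooth muscle markers, ran from 1827 to 9014 in Fur and from 2675 to 9030 in NWS, against 26.6 to 706 in Suffolk. The summed CPM of the 6 epithelial and mucus markers ran from 803 to 3260 in Fur, 1219 to 2306 in NWS and 2756 to 5438 in Suffolk. Among luteal ewes the smooth muscle markers were at 582 to 9388 CPM in Fur and 317 to 979 in Suffolk. In the natural cycle the Fur and Suffolk ranges of both sums overlapped. Smooth muscle markers ran from 1656 to 7717 CPM in Fur (median 5062) and from 65.6 to 6075 in Suffolk (median 474). Epithelial and mucus markers ran from 1046 to 2345.5 CPM in Fur and from 1276.5 to 6622 in Suffolk. Between Fur and NWS the ranges of both sums overlapped in all 3 states. The part of tissue make-up in the differences of the 6 genes was not tested. In bulk RNA, fewer cells of a type and less RNA per cell cannot be told apart.

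The ATP synthase genes went the other way. ATP6 was higher in Fur than in Suffolk in the synchronised follicular phase, at 1698 ± 168 CPM (SD, n = 8) against 1186 ± 272 (n = 11), a log2 fold change of 0.52 (SE 0.12, adjusted p = 0.0036, edgeR). In the luteal phase it was at 1699 ± 260 CPM in Fur and 1204 ± 417 in Suffolk, a log2 fold change of 0.49 (SE 0.17, adjusted p = 0.040). The natural cycle gave 0.24 (95% interval -0.09 to 0.57, adjusted p = 0.32). The lowest Fur ewe lay inside the Suffolk range in every state.

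Against NWS, ATP6 in Fur was 0.55 (SE 0.13) on the log2 scale in the synchronised follicular phase and 0.57 (SE 0.15) in the luteal phase, with adjusted p-values of 0.23 and 0.24 by edgeR. DESeq2's Wald test gave adjusted p-values of 0.020 and 0.035 for these differences. For the natural cycle the value was 0.14 (SE 0.18).

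ATP8 had the largest rise in Fur. The 8 synchronised follicular Fur ewes had 332 to 565 counts with a median of 509, and the 11 Suffolk ewes 7 to 177 with a median of 10. The groups did not overlap in CPM (17.4 to 32.99 against 0.392 to 9.25), and the log2 fold change was 3.27 (SE 0.62, adjusted p = 0.00067, edgeR), a level 9.62-fold higher. Of the 16 synchronised follicular ewes that took ATP8 past the filter, 8 were Fur and 8 of other breeds, fewer than the 10 needed, so a gene kept in this way had to be high in Fur and the test adds little to the values. In the natural cycle it was 1.11 (SE 0.72, adjusted p = 0.28) and in the luteal phase 1.72 (SE 0.71, adjusted p = 0.071). Leaving out Suffolk replicates 6, 7 and 8 moved the natural cycle value to 2.69 (adjusted p = 0.0013, edgeR). That exclusion was chosen after seeing the data. It takes out replicate 8, at 73.4 CPM against 0.371 to 8.93 in the other Suffolk ewes, so no support is drawn from it.

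The errors of ATP8 were wide because its values fell on separate levels within a breed. Of the mapped ewes, 55 had at most 2.21 CPM (29 counts or fewer) and 59 had at least 5.06 CPM (84 counts or more). All 27 Fur ewes were in the upper set. Among synchronised follicular ewes so were 3 of 11 Suffolk, 3 of 10 Belclare and 2 of 10 NWS ewes. In the natural cycle these numbers were 4 of 8, 2 of 10 and 6 of 10, and in the luteal phase 6 of 10, 3 of 10 and 3 of 8. A mean over such a group describes few of its ewes. 

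The upper set was itself spread. In the synchronised follicular phase its Suffolk ewes had 6.28 to 9.25 CPM, its Belclare ewes 6.30 to 11.1, its NWS ewes 29.9 and 30.0, and the Fur ewes 17.4 to 32.99. In the luteal phase its Belclare ewes had 7.03 to 10.7 CPM, its NWS ewes 22.2 to 30.4 and the Fur ewes 21.1 to 59.9. Suffolk reached 41.8 CPM there and 73.4 CPM in the natural cycle, each in a single ewe.

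ATP8 and ATP6 moved together. When the ewes were ordered by the ratio of the ATP6 to the CYTB count, which needs no scaling between libraries, the highest 59 ewes were the same 59 ewes that had the high ATP8 level. The ratio was at most 0.243 in the 55 ewes of low ATP8 and at least 0.246 in the others, without a gap between them. Across the mapped ewes the log2 CPM of ATP8 and ATP6 had a Pearson r of 0.92, and 0.88 after the mean of each group was removed. These correlations come from genes that overlap and share each library, and are given without a test.

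**Figure D3:**
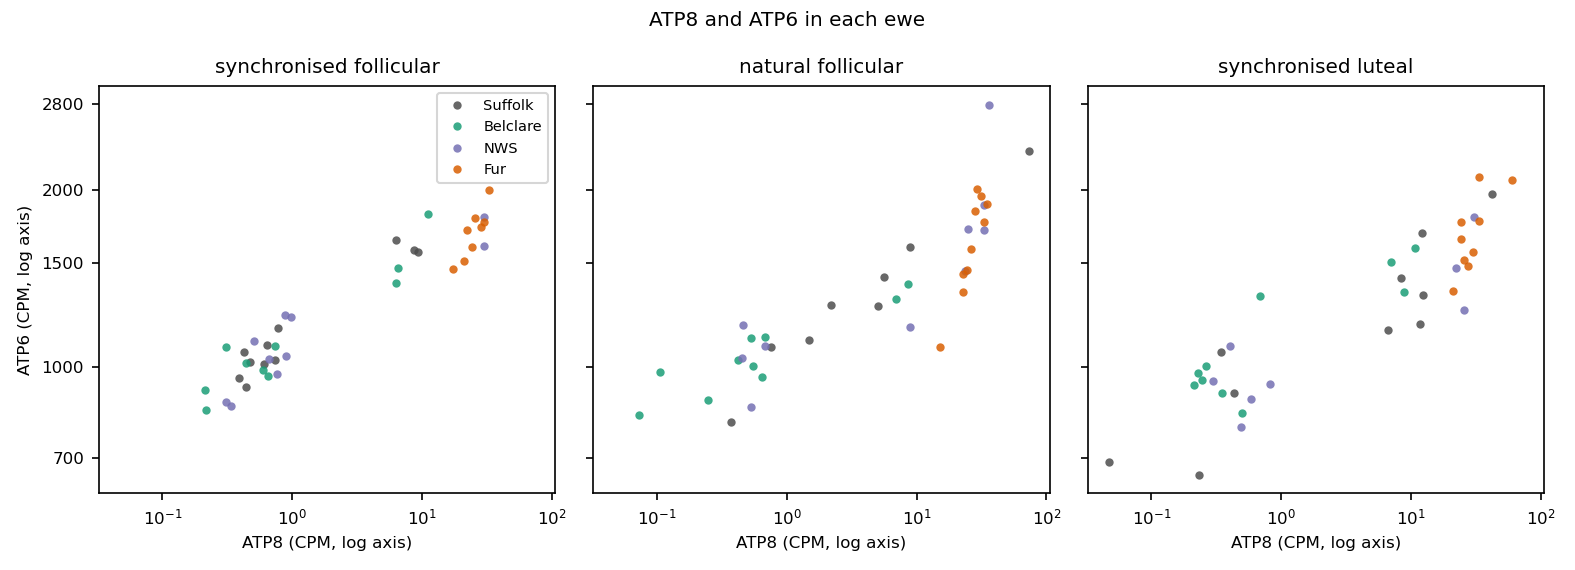
CPM of ATP8 and ATP6 (both axes log) in each ewe (points, coloured by breed) in the 3 states. Ewes at 5.06 CPM or more of ATP8 mostly lie above those at 2.21 CPM or less on the ATP6 axis, and the Fur ewes are all among the former.

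The remaining protein genes of the mitochondrial genome, the 7 complex I subunits, showed no change of the size seen in COX-1. In Fur against Suffolk in the synchronised follicular phase 31.6% of all genes tested were called. Of the genes described here other than ATP8, 4 of 5 were called, 1 of them higher and 3 lower. Of the 7 complex I genes 2 were called, a share near that of all genes, both lower, namely ND5 (-0.39, SE 0.15) and MT-ND6 (-0.71, SE 0.19). In the natural cycle, with 20.2% of all genes called, the counts were 2 of 5 (COX-1 and COX3) and 1 of 7 (MT-ND6, -0.90, SE 0.23). In the luteal phase, with 30.1% of all genes called, they were 2 of 5 (COX-1 and ATP6) and 2 of 7 (ND2 at 0.92, SE 0.22, and ND4L at 0.48, SE 0.17, both higher). In NWS against Suffolk 3 of 5 (COX-1, COX3 and CYTB, all lower) and 3 of 7 were called in the synchronised follicular phase, beside 41.7% of all genes, and none in the other states. Most of these counts are near the share of all genes called, and nothing is read from them. Between Fur and NWS no complex I gene was called in any state, and COX-1 alone of the 6 genes in each.

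**Figure D4:**
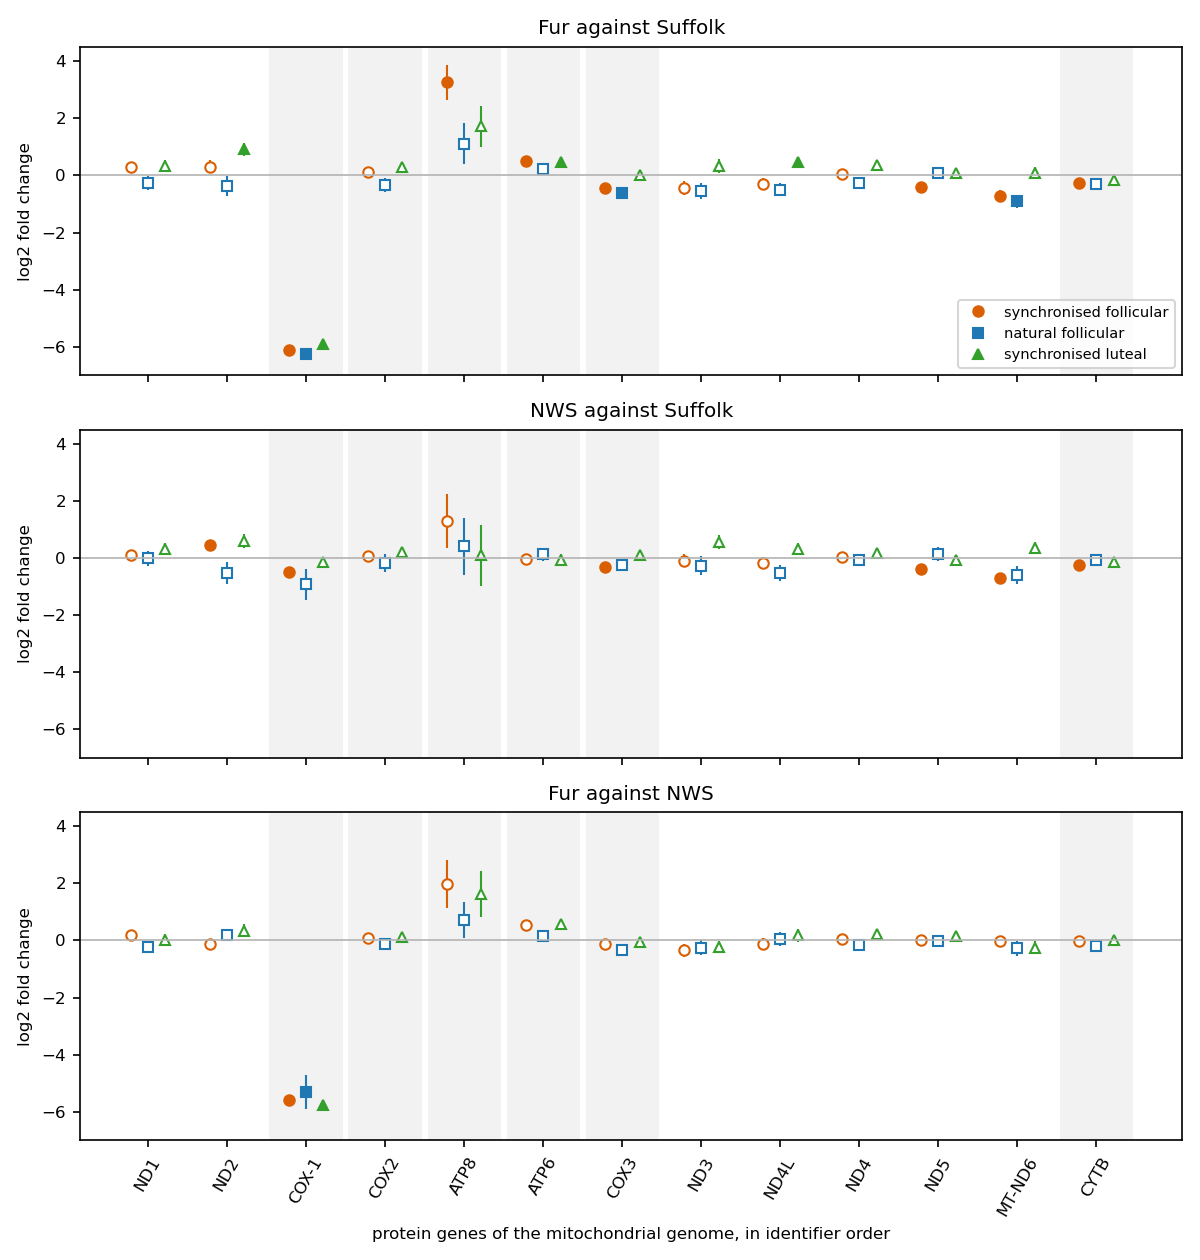
Log2 fold change (points) with its standard error (bars) for the 13 protein genes of the mitochondrial genome in identifier order, in 3 breed comparisons and 3 states. Filled points are called by edgeR and grey bands mark the 6 genes described here. COX-1 lies between -6.26 and -5.31 in every comparison of Fur, while its neighbours ND2 and COX2 lie within 1 unit of 0.

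The 22 transfer RNA genes were close to unmeasured, as 19 of them never exceeded 20 counts in a ewe and 1 was tested. That gene, ENSOARG00000000036, follows CYTB in identifier order and had a median of 7 counts in Fur and 14 in Suffolk in the synchronised follicular phase. It was lower in Fur there (log2 fold change -2.07, SE 0.52, adjusted p = 0.0056, edgeR) and in the natural cycle (-1.16, SE 0.36, adjusted p = 0.031), and higher in luteal Belclare than in luteal Suffolk ewes (1.62, SE 0.39, adjusted p = 0.035). In the synchronised follicular phase it reached 1 CPM in 5 Suffolk, 6 Belclare, 1 NWS and 0 Fur ewes. This transfer RNA gene thus passed the filter mainly through Irish ewes, and its test in Fur in that phase adds little to the values. The 2 ribosomal RNA genes had at most 25 counts. Of the nuclear genes that serve these complexes, names were at hand for COX7A2, a subunit of cytochrome c oxidase, PET117, which helps to assemble it, and PPARGC1B, a coactivator of mitochondrial gene programmes. In Fur against Suffolk in the synchronised follicular phase all 3 were lower, COX7A2 at -1.52 (SE 0.42, adjusted p = 0.0095), PET117 at -0.56 (SE 0.17, adjusted p = 0.019) and PPARGC1B at -0.51 (SE 0.17, adjusted p = 0.031, all edgeR). In NWS against Suffolk they were lower as well, at -1.40, -0.49 and -0.57 (adjusted p = 0.0023, 0.043 and 0.026, edgeR). Of all genes tested, 31.6% and 41.7% were called in these comparisons, which share their Suffolk ewes. Fewer calls were made in the other states, namely COX7A2 (-1.44, adjusted p = 0.010) and PET117 (-0.89, adjusted p = 0.0063) in Fur against Suffolk in the natural cycle and PET117 (-0.83, adjusted p = 0.0054) in the luteal phase. In NWS against Suffolk none of the 3 was called in either of these states. Between Fur and NWS none of them was called. COX7A2 was near the detection limit, with medians of 6 counts in Fur and 19 in Suffolk. It reached 1 CPM in 5 Suffolk, 5 Belclare, 0 Fur and 0 NWS ewes of the synchronised follicular phase, just the 10 needed. A gene kept in this way had to be high in the Irish breeds, so its tests in that phase add little to the values. PTGS1, cyclooxygenase-1, is an unrelated nuclear gene whose product is also called COX-1, and is not among the genes described. It too was called lower in Fur and in NWS than in Suffolk in the synchronised follicular phase.

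The differences called between phases were small. Across the breeds, luteal against follicular ewes of the synchronised cycle had lower COX-1 (log2 fold change -0.17, SE 0.05, adjusted p = 0.0022, edgeR) and lower CYTB (-0.21, SE 0.04, adjusted p = 2.4e-05). The other 4 genes were not called, and 69.8% of all genes tested were. ATP8 had the widest difference, 0.73 (SE 0.46, adjusted p = 0.15, edgeR). Its group means differed by 1.85 on the log2 scale in Suffolk, 0.63 in NWS, 0.30 in Fur and 0.10 in Belclare. The Suffolk difference leaned in part on luteal replicate 10, at 41.8 CPM against 0.0467 to 12.3 in the other ewes of that group. In group means CYTB was lower in the luteal phase in all 4 breeds, by 0.07 to 0.32 on the log2 scale. COX-1 was lower in 3 of 4, with NWS at 0.00, and its call was lost in the single fit of all ewes (adjusted p = 0.27). Of the complex I genes, ND5 was higher in the luteal phase (0.53, SE 0.08, adjusted p = 4.8e-09) and ND3 (0.27, SE 0.11, adjusted p = 0.022).

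Between the natural and the synchronised cycle, edgeR called none of the 6 genes and 0% of all genes tested, and 1 of the 6 (COX2, 0.24, SE 0.09) and 14.6% of all genes had an unadjusted p under 0.05. ATP8 was at 0.80 (SE 0.45, adjusted p = 0.39, edgeR). Its group means differed by 2.23 on the log2 scale in Suffolk, 1.31 in NWS, 0.09 in Fur and -0.53 in Belclare. The Suffolk difference leaned on natural follicular replicate 8, at 73.4 CPM against 0.371 to 8.93 in the other ewes of that group. DESeq2 called none of the 6 either. No breed by phase interaction was called among the 6 (lowest adjusted p = 0.37, for COX3), with 0.898% of all genes called. No breed by cycle interaction was called (lowest adjusted p = 0.44, for ATP8), with 2.44% called. At an unadjusted p under 0.05 there were 0 of the 6 for either interaction, beside 17% and 17.1% of all genes. DESeq2's likelihood ratio test called none of these 12 interactions.

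The order of the 12 groups by mean CPM of COX-1 was led by Belclare and Suffolk. Suffolk and Belclare in both follicular phases had 2403 to 2480 CPM and did not differ beyond their spread. Belclare luteal ewes (2210) and Suffolk luteal ewes (1928) followed, then NWS luteal (1721), NWS synchronised follicular (1718) and NWS natural follicular ewes (1304). The 3 Fur groups closed the order at 32.1 to 34.9 CPM. Of the 11 steps in this order, the 1 that exceeded the SD of both its groups was that from NWS natural follicular to Fur. For the other 5 genes no step did.

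Outside the mitochondrial genome, few genes had patterns like these across the mapped ewes, and most of those found have no name in the tables at hand. By Pearson r of log2 CPM, the most alike gene to COX-1 was ENSOARG00000010188 (r = 0.65). Removing the group means left r = 0.13, so the likeness lay between groups. For COX2 it was ENSOARG00000000472 (r = 0.65, and 0.60 within groups), for ATP8 ENSOARG00000008961 (0.57 and 0.16), and for ATP6 ENSOARG00000012015 (0.57 and 0.39). For COX3 it was ENSOARG00000019405 (0.50 and 0.44), and for CYTB ENSOARG00000001050 (0.39 and 0.20). XPNPEP1, an aminopeptidase gene, was second for CYTB (0.38 and 0.14). The ewes share breed, state and country, and no test was made.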

How the data were processed

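Cervical RNA-seq libraries in 12 groups of breed and state were analysed. The authors made stranded mRNA libraries, trimmed the read pairs, aligned them with STAR (2.6.1b, in the submitters' processing notes) to the Oar_v3.1 genome, kept uniquely mapped pairs with few mismatches, and obtained counts per Ensembl gene from featureCounts (Subread 1.6.3). The study's methods speak of protein-coding genes, but the files also hold identifiers of the mitochondrial transfer and ribosomal RNA genes. The deposited values are these raw read counts per gene, without normalization. A pair that matched a nuclear copy of a mitochondrial gene equally well, or that differed from the reference by more than the limit, is therefore not in the counts. Whether counting used the strand is not given in the sources used here.

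Group, breed and state came from the labels. The members and gene lists were chosen with earlier results of these data known. Genes with at least 1 CPM in at least 10 of 39 synchronised follicular ewes were tested (14811 of 27054). Each pair of groups was fitted alone with edgeR 4.0.16 (R 4.3.3), TMM library sizes and its quasi-likelihood F test. Phase and cycle were tested across breeds with breed as a term, and interactions of breed with both. The authors used DESeq2's likelihood ratio test, and DESeq2 1.42.0 was an alternative here. P-values were adjusted over all genes tested by the Benjamini-Hochberg method. SEs of log2 fold changes were derived from the F statistic (absolute change over root F), and 95% intervals are 1.96 SE to either side. Ratios within a library and levels were described without a test. Log2 CPM for correlations used a prior count of 2. Genes named are the 6 members, the complex I genes, nuclear genes of these complexes that have a name, the fixed cell type markers, and the genes outside the mitochondrial genome most alike to each member. ENSOARG00000000017 was named after its values were seen. The test was tried on simulated counts with 200 changed genes.

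Depth was 12238996 to 31261671 counts. A count of 0 allows up to 3 counts, for counting error only. Alternatives were DESeq2's size factors and tests, no filter on low counts, an added fold change of 1.5, 1 fit of all ewes, the replicate number as a block, library sizes without the 37 mitochondrial genes, NWS replicates 4 and 10 of the natural cycle left out, the complex I genes as the base of the COX-1 ratio, and plain library totals. Leaving out Suffolk replicates 6, 7 and 8 of the natural cycle was chosen after seeing the data. The replicate numbers come from the titles and belong to different animals.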

Additional observations from a re-analysis of the deposited data

Results flagged for a closer look

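In 66 sets of a gene and a group of 4 to 10 ewes, 10 had a highest ewe set apart from the rest by Dixon's criterion, where chance gives about 1 in 20. For ATP8 these were Suffolk natural follicular replicate 8 at 73.4 CPM (others 0.371 to 8.93), Suffolk luteal replicate 10 at 41.8 CPM (others 0.0467 to 12.3) and Fur luteal replicate 1 at 59.9 CPM (others 21.1 to 33.4). NWS natural follicular replicate 5 was highest for COX2 at 17.8 CPM (others 5.44 to 11.6), for ATP6 at 2797 CPM (others 854 to 1889) and for CYTB at 8266 CPM (others 3756 to 6082). Its TMM factor was 0.688, the lowest of all ewes (others 0.821 to 1.15). On plain totals it was at 1925 CPM of ATP6 against at most 1791 in the other NWS ewes of the natural cycle, and at 5689 CPM of CYTB against at most 5763.

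For COX3 the ewes were Belclare synchronised follicular replicate 1 at 20.9 CPM (others 7.60 to 11.2), Belclare luteal replicate 8 at 19.9 CPM (others 8.51 to 14.0) and Fur luteal replicate 8 at 12.6 CPM (others 5.64 to 9.03). For COX-1 it was Belclare luteal replicate 3 at 3232 CPM (others 1768 to 2540). The low COX-1 values of NWS natural follicular replicates 4 and 10 are 2 in number and so are not picked out by this criterion.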

How the results depend on the processing

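The replicate numbers did not pair the ewes, since same-numbered ewes had correlations of their deviations from group means from -0.52 to 0.52 in the 12 breed comparisons and 6 of 105 ewes correlated best with their own number. COX-1 in Fur kept its direction and its call under every alternative run, from -6.34 to -5.90 against Suffolk and from -5.76 to -4.92 against NWS, except that with the replicate block Fur against NWS in the natural cycle was -4.92 with an adjusted p of 0.33 and so 0 of the 6 genes were called. Of 534 refitted log2 fold changes 502 kept direction and call, and the 72 refitted interactions and all 72 levels on plain totals did so too. With the complex I genes as the base, the COX-1 ratio of Fur minus Suffolk was -5.74 in the synchronised follicular phase, in place of -6.01. In the natural cycle it was -6.39, in place of -6.10. This base was mostly ND5, with a median of 20185 counts in synchronised follicular Suffolk ewes. The other complex I genes had medians of 23 to 266 there, and ND5 was itself called lower in Fur in that phase. The cause of the changes below was not tested.

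The number of the 6 genes called changed with an added fold change of 1.5 to 2 for Fur and 0 for NWS against Suffolk (synchronised follicular), 1 for Fur against Suffolk (luteal) and 0 for phase. In 1 fit of all ewes it was 1 for NWS against Suffolk in the synchronised follicular phase, 1 in the natural cycle, and 1 for phase. It was 1 for Fur against Suffolk (natural) with no low count filter, and 2 for Fur against NWS in both synchronised states by DESeq2's test.

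Direction reversed under the replicate block for COX-1 (-0.0012) and ATP8 (-0.39) in Belclare and ATP8 (-0.086) in NWS against Suffolk, synchronised follicular. It did so under the block for COX3 in Belclare (-0.0092) and ATP8 in NWS (-0.50) against Suffolk, natural, for ATP6 in NWS against Suffolk, luteal (0.074), and for COX2 in Fur against NWS, synchronised follicular (-0.0055). Without Suffolk replicates 6, 7 and 8, COX2 reversed in Belclare (0.059), Fur (0.35) and NWS (0.49), and COX3 (0.13) and CYTB (0.00026) in NWS. Without NWS replicates 4 and 10, ATP8 in NWS against Suffolk was -0.029. CYTB in Fur against NWS, luteal, was -0.0086 with no filter, and COX2 between phases was 0.0077, 0.0056 and 0.0065 with DESeq2's size factors, its test and 1 fit of all ewes. None of these was called in either fit. The block also called ATP8 in Fur against Suffolk in the natural (2.83) and luteal (3.22) states.

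Counts of all genes called that moved by over 1.5 times were, main and range over alternatives, 1 (0 to 55), 0 (0 to 49) and 467 (18 to 1551) for Belclare, 2995 (1617 to 5094) for Fur (natural), 154 (0 to 2670) and 1322 (308 to 2007) for NWS (natural and luteal), 1 (1 to 41), 6 (0 to 428) and 8 (as few as 1) for Fur against NWS, 0 (0 to 56) for cycle, and 133 (72 to 472) and 361 (253 to 616) for the interactions with phase and cycle. Depth limits the transfer RNA genes and ATP8, which had few counts in 55 ewes.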

Other observations

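The library left out for its contradictory labels, titled as a Suffolk ewe of the natural follicular phase and otherwise labelled luteal, held 15387419 counts. It had 32957 counts of COX-1, 178 of COX2, 666 of ATP8, 36345 of ATP6, 196 of COX3 and 100183 of CYTB. On plain library totals its ATP6 level was 2362 CPM, where the mapped Suffolk ewes ran from 671 to 2280, and its other 5 genes lay within the Suffolk range.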
